A study of Danio rerio with 12 samples.

Results

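The spread of gene expression between individual GR-mutant brains was examined in 6 poly(A)-selected RNA-seq libraries, each made from the whole brain of 1 male zebrafish homozygous for gr s357, out of 12 libraries in the series. The fish were aged 22 months, and each brain was taken with its olfactory bulbs and pituitary. The other 6 libraries came from wild-type siblings of the same sex and age, which serve here only as a comparison for the amount of spread. Both genotypes descended from in-crosses of gr s357 heterozygotes and were kept in separate tanks. The allele is a missense change in nr3c1, the gene of the glucocorticoid receptor (GR), and is carried by every cell from fertilisation onwards. No mean of the mutants was tested against a mean of the wild-type fish. The members described are the 14688 genes, 45.2% of the 32520 gene IDs in each table, whose normalised count averaged at least 100 over the 6 mutant brains. At that limit, the last gene included averaged 100.019 normalised counts and the first one left out 99.9964. The members took between 98.9% and 99.23% of all normalised counts in each mutant library.

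A whole-brain library is a mixture. Neurons and glia supply most of its RNA, but the olfactory organ, the retina, the head muscle, the skin, the meninges and the blood vessels all lie against the brain, and the pituitary and the pineal organ hang from it by stalks. In bulk samples, fewer cells of a type and less RNA per cell cannot be told apart. The GR is a transcription factor that is activated by cortisol and that, among other targets, represses pomc in the corticotrophs of the pituitary.

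The 6 mutant libraries held 24809137 to 36313866 reads assigned to genes, against 24407683 to 37548901 in the wild-type libraries. Any pair of libraries differed in the reads of at least 24900 genes, so that none was deposited more than once. As a check of the tissue, SNAP25 (ENSDARG00000020609), a protein of synaptic vesicle release, had 116737 to 126937 normalised counts in the mutant brains and 125644 to 136413 in the wild-type brains. The transcript of NR3C1 itself was among the steadier members. It had 4817, 4910.2, 4955, 4691, 4857 and 4669.5 normalised counts in mutant brains 1 to 6, against 4107 to 4567 in the wild-type brains. A missense allele need not alter the level of its transcript, and these values do not show the genotype.

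For each member the spread was taken as the standard deviation (SD) of log2(normalised count + 1) over the 6 brains, a scale on which an SD of 1 means that brains typically lay a factor of 2 from the gene's mean. The median SD was 0.14, with a 5th percentile of 0.0516 and a 95th percentile of 0.458. Counting error alone would give a median SD of 0.0555, and it accounted for a median of 14.7% of a member's variance. An SD of at least 0.5 was reached by 603 members (4.11%), and an SD of at least 1 by 224 (1.53%). The members on either side of the upper limit had SDs of 1.009 and 0.9908. The plot of spread against mean count shows that these genes stood apart from a narrow band that held nearly all members.

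**Figure D1:**
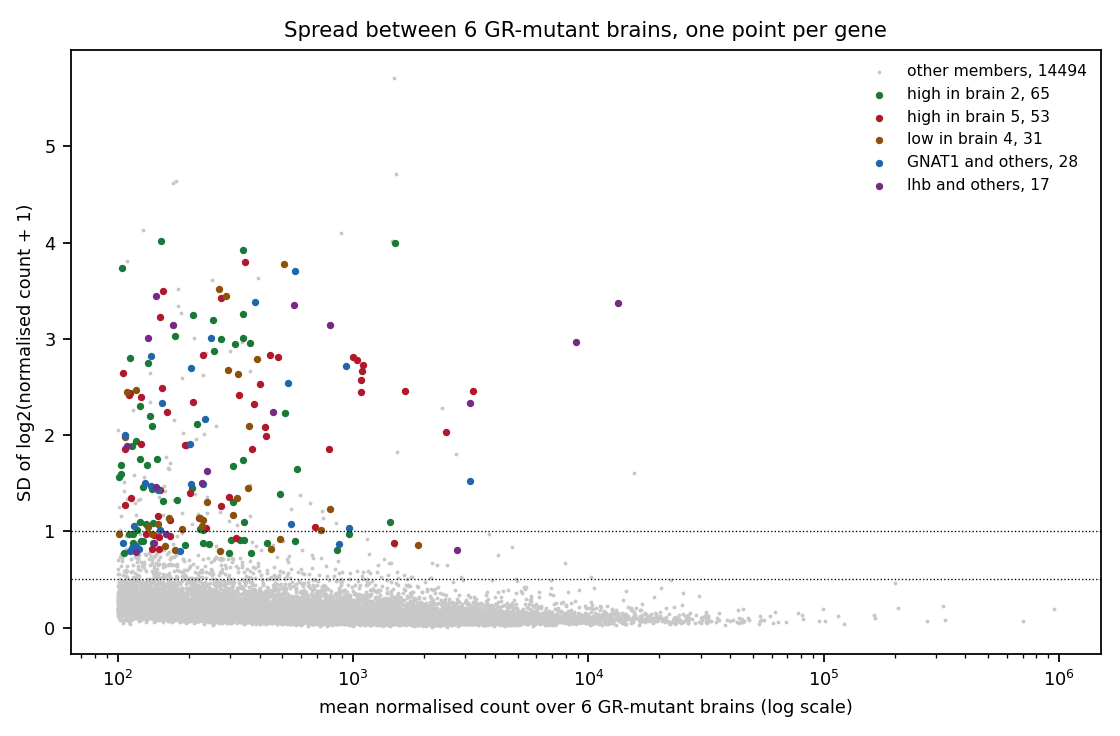
Spread between the 6 GR-mutant brains, as the SD of log2(normalised count + 1), against the mean normalised count (log scale), with 1 point for each of 14688 genes. The 5 largest groups of co-varying genes are coloured and named with their number of genes, and dotted lines mark SDs of 0.5 and 1. Most genes lie in a band around the median of 0.14, while pituitary genes reach SDs near 3 at high mean counts.

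The least variable members with a mean of at least 1000 normalised counts barely differed between brains. YES1, a Src-family kinase, had 2167, 2190.4, 2171, 2164, 2167 and 2154 normalised counts in mutant brains 1 to 6, an SD of 0.008. LYPLA2, an acyl-protein thioesterase, had 2484 to 2533 and an SD of 0.01, and fastk had 1790.4 to 1829 and an SD of 0.0116. These genes were picked as the lowest of many members, and counting error alone would give larger SDs at such counts. Their low SDs therefore do not show that these genes are steadier than others. These SDs also depended on the scaling, and with all libraries brought to the same total they were 0.0275, 0.0216 and 0.0251.

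To see which genes moved together, the 300 members with the highest SD were joined by the correlation of their levels over the 6 brains. The last gene taken had an SD of 0.7655 and the next member 0.7635. With only 6 points, high correlations are common by construction of the list. Over all pairs of members, 1.12% had a Pearson r of at least 0.9 and 1.01% an r of at most -0.9. Of the 300 genes, 274 fell into 16 groups of at least 5 genes, and 206 of the 224 members with an SD of at least 1 were in a group. The 5 largest groups held 148 of the 224. As the groups were formed on these same values, a high r within a group follows from the grouping. A shared highest or lowest brain follows from it in part. The wild-type brains were not used to form the groups, so a group's r in the 2 genotypes is not on equal terms. In 6 of the 16 groups a single brain stood apart from the other 5 by Dixon's criterion, and other groups divided 2 or 3 brains from the rest. The plot of group levels shows 9 of the 16. For 61 of the 224 members the SD was under 0.5 once 1 brain was left out, and that brain was brain 2 for 27 genes, brain 5 for 16, brain 4 for 13, brain 3 for 3, and brains 1 and 6 for 1 gene each.

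**Figure D2:**
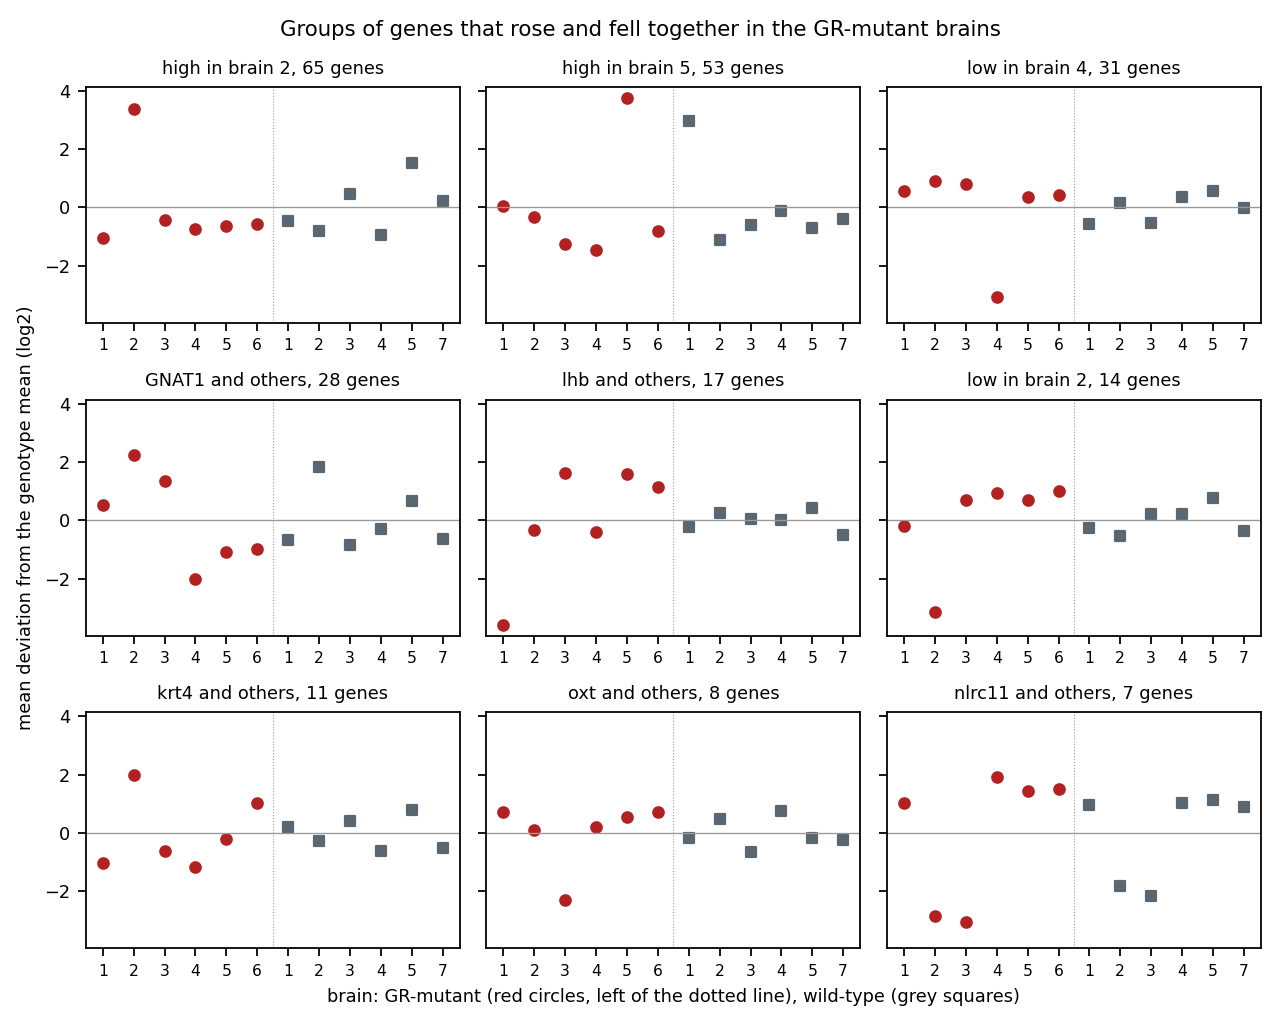
Mean deviation of 9 groups of genes (log2, averaged over the genes of a group) from the genotype mean in each brain, with GR-mutant brains as red circles to the left of the dotted line and wild-type brains as grey squares to the right. The groups were formed on the mutant brains only. The group of 65 genes stands at 3.39 in mutant brain 2 and the group of 53 genes at 3.77 in mutant brain 5, while those 53 genes are also high in wild-type brain 1.

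The largest group, of 65 genes, was high in mutant brain 2. It held 5 genes of the skin and epithelium list and 2 of the olfactory and telencephalic list, 12 of the 65 were in any list, and the genes below are examples. Each of the 65 genes had its highest level in that brain, where the group averaged 3.39 log2 units above its mean, against -1.03 to -0.418 in the other 5 brains. Among its leading genes, pvalb5, a parvalbumin, had 9007 normalised counts in brain 2, against 9.04, 10.7, 4.76, 16.4 and 11.3 in mutant brains 1, 3, 4, 5 and 6. The gene or92a4, named as an odorant receptor, had 626 normalised counts in brain 2 and at most 0.904 in the others, and its neighbour in gene order, si:dkey-92k1.9, had 912 there and 0 in the other 5. A level of 0 reads allows up to 3 reads, which correspond to 2.43 to 3.57 normalised counts in these libraries. The tight-junction gene cldne had 1987 normalised counts in brain 2 and 2.71 to 28.3 in the others, the transcription factor ELF3 had 1220.2 against 0.904 to 12.4, the adhesion gene epcam 1542 against 1.81 to 42.9, and cdh1, which encodes E-cadherin, 658 against 5.42 to 26.4. Of the 26 members of the olfactory and telencephalic list, 10 were highest in brain 2, as were 16.9% of all members, and 10 in brain 1. The list's median deviation was 0.0786 log2 units in brain 2 and 0.131 in brain 1. The 2 members of that list in the group, S100Z and OMP (ENSDARG00000105218), were present in every brain. S100Z, a calcium-binding protein of crypt neurons in the zebrafish olfactory epithelium, had 168, 2649, 154, 172, 169 and 145 normalised counts in mutant brains 1 to 6. OMP (ENSDARG00000105218), the olfactory marker protein, had 519 in brain 2 and 37 to 81 in the other 5.

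The same 65 genes also varied between wild-type brains, where they were not chosen. Their median pairwise r was 0.922 in the mutant brains, in which the group was formed, and 0.525 in the wild-type brains, and their median SD was 1.45 in the mutants and 0.833 in the wild-type fish. Wild-type brain 5 had the highest mean level of the group among the wild-type brains, with 3240.1 normalised counts of pvalb5 and 315 of or92a4.

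Several genes of inflammation and cytokine signalling were also highest in brain 2. The gelatinase gene MMP9 had 639 normalised counts there and 174 to 219 in the other mutant brains, against 126 to 193 in the wild-type brains. The lipid carrier apoeb, a gene of microglia in fish, had 17066 in brain 2 and 4698 to 7469 in the others. The transcription factors CEBPB and CEBPD and both SOCS3 genes, feedback inhibitors of cytokine signalling, had their highest level in that brain. SOCS3 (ENSDARG00000025428) had 792, 1301, 476, 193, 234 and 282 normalised counts in mutant brains 1 to 6, and SOCS3 (ENSDARG00000026611) had 637, 1687, 545, 434, 440.3 and 634. CEBPB had 871, 1397, 497, 356, 392 and 491. Most microglial genes were not highest there. Of the 20 members of the microglia and macrophage list, 4 were highest and 6 lowest in brain 2, where the list's median deviation was -0.116 log2 units. Whether these levels were tied to the epithelial genes in the same brain was not tested. In the list of complement, acute-phase and inflammatory genes, 9 of 18 members were highest in brain 2, as were 16.9% of all members, and 5 had an SD of at least 0.5, with a list median SD of 0.31.

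A group of 53 genes, 13 of them in the muscle list, was high in mutant brain 5. All 53 genes were highest in that brain, 3.77 log2 units above the group's mean, against -1.45 to 0.0504 in the other 5 mutant brains. The creatine kinase gene ckma had 5978 normalised counts in brain 5 and 46.4 to 176 in the others. The sarcomeric genes actc1b and TNNT3 (ENSDARG00000068457) had 9034 and 5491 in brain 5, against highest values of 290.1 and 205 elsewhere, and the slow myosin gene smyhc2 had 1958 there and 1.19 to 103 elsewhere. Of the 19 members in the muscle list, 18 were highest in brain 5, as were 9.83% of all members, and 14 had an SD of at least 1, and the list summed to 57496 normalised counts in brain 5 and to 9754 to 12276 in the other 5. The wild-type brains held a similar case, as the list summed to 37460 in wild-type brain 1 and to 9852 to 11645 in the other wild-type brains. The median pairwise r of the 53 genes was 0.939 in the mutant brains and 0.9 in the wild-type brains.

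A group of 28 genes, 12 of them in the list of photoreceptor, retinal and pineal genes, was on average high in brains 1, 2 and 3 and low in brains 4, 5 and 6. The retina and the pineal organ share the phototransduction cascade, in which a light-activated receptor switches on transducin, transducin activates a phosphodiesterase, and arrestin ends the response. The rod transducin gene GNAT1 had 318, 1250.5, 632, 1.19, 28.5 and 55.9 normalised counts in mutant brains 1 to 6, and the arrestin gene saga 219, 563, 637, 2.38, 54.8 and 15.4. The melatonin enzyme genes aanat2 and ASMT, which the pineal organ expresses, had the same high brains. In mutant brains 1 to 6, aanat2 had 204, 595, 391, 91.6, 48.2 and 55.9 normalised counts. ASMT had 91.3, 377, 284, 32.1, 49.3 and 53.4, while asmt2, another member of the list, was not in the group of 28. In the list of photoreceptor, retinal and pineal genes 12 of 20 members had an SD of at least 1, and the list summed to 4249, 13899 and 9094 normalised counts in brains 1, 2 and 3 and to 1708, 2005 and 2412 in brains 4, 5 and 6. In 14 of the 20, brains 1, 2 and 3 were all above brains 4, 5 and 6, an arrangement that 6.13% of all members had, while 6.81% had the opposite one. In the wild-type brains the list summed to 20835 in brain 2, 5458 in brain 5 and 1909 to 2640 in the other 4, and its median SD was 1.48 in both genotypes. Over the 28 genes of the group, the median pairwise r was 0.894 in the mutant brains and 0.164 in the wild-type brains. For the list it was 0.842 and 0.892.

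A further 31 genes were low in mutant brain 4, all 31 with their lowest level there, 3.06 log2 units under the group's mean. They included the G protein subunit gene GNG11, with 213, 767, 553, 0, 38.3 and 48.6 normalised counts in mutant brains 1 to 6. RPE65 (ENSDARG00000007480), the isomerohydrolase of the visual cycle, had 96.7, 268, 177.5, 4.76, 36.1 and 61.5. Both were thus also higher in brains 1, 2 and 3 than in brains 5 and 6, as GNAT1 was. FABP7 (ENSDARG00000034650), a fatty-acid-binding protein of radial glia, had 36.9 in brain 4 against 119 to 423 in the others. FABP7 (ENSDARG00000034650) was the only 1 of the 26 members of the radial glia and astroglia list in this group. The median deviation of that list in brain 4 was -0.0155 log2 units. The selenoprotein gene selenol had 11.9 normalised counts in brain 4, against 243 to 568 in the other mutant brains and 474 to 551 in the wild-type brains. The median pairwise r of the 31 genes was 0.893 in the mutant brains and 0.263 in the wild-type brains.

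Pituitary hormone genes had the widest spread of all lists examined. Of 9 members, 8 had an SD of at least 1, the median SD was 2.97, and 7 were lowest in brain 1, as were 14.5% of all members. The gonadotrophin subunit gene lhb had 89.5, 1512, 31212, 1550.1, 12641 and 5942 normalised counts in mutant brains 1 to 6, a 349-fold range. Its partner CGA (ENSDARG00000040479), the common alpha subunit, had 65.1, 1692, 45771, 2322, 19202 and 11311. Growth hormone, gh1, had 2.71, 27.5, 1160.0, 258, 1648 and 251, and prolactin, prl, had 20.8, 74.2, 1218, 134, 838 and 457. Brains 3, 5 and 6 were the highest for lhb, CGA and prl, and brain 1 was the lowest. The second gonadotrophin subunit gene, fshb, was further apart, with 1503 normalised counts in brain 3, 383 in brain 5 and 6.33 to 67.8 in the others. The list summed to 520, 3860.4, 87521, 5046, 42398 and 23088 normalised counts in mutant brains 1 to 6, against 6901 to 46202 in the wild-type brains, where its median SD was 1.22.

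POMC, the precursor of adrenocorticotrophic hormone (ACTH) and the pituitary gene under GR repression, divided the mutant brains in the same way. It had 179.8, 363 and 552 normalised counts in brains 1, 2 and 4 and 5757, 7166 and 4841 in brains 3, 5 and 6, against 88.4 to 386 in the wild-type brains. Relative to lhb, the POMC count was 2.01, 0.24, 0.184, 0.356, 0.567 and 0.815 in mutant brains 1 to 6, against 0.0108 to 0.0813 in the wild-type brains. Ranges that did not overlap were not particular to POMC. Relative to lhb, prl was 0.039 to 0.232 in the mutant brains, against 0.0115 to 0.0365 in the wild-type brains. The gh1 ranges overlapped at their ends, at 0.0182 to 0.167 against 0.000796 to 0.0196. The ranges also overlapped for fshb, at 0.00606 to 0.0707 against 0.00297 to 0.0164, and for CGA (ENSDARG00000040479), at 0.727 to 1.9 against 0.723 to 1.12. The POMC ratio in mutant brain 1 rests on the lowest mutant counts of both genes. How much pituitary tissue each library held was not measured.

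The tree placed POMC, lhb, gh1, prl and both CGA genes with 11 other genes in a group of 17 that was lowest in brain 1. Among these were the alpha-globin gene hbaa2, with 9.94, 53.1, 98.3, 15.5, 150.0 and 326 normalised counts, and both HOXB5 genes, patterning genes of the hindbrain and spinal cord. HOXB5 (ENSDARG00000013057) had 19.9 normalised counts in brain 1 and 115 to 438 in the other 5, against 255 to 487 in the wild-type brains, and HOXB5 (ENSDARG00000054030) had 15.4 in brain 1 and 80.9 to 250.2 in the others. The actin-regulator gene arpc4l had 3.61 in brain 1, 678 to 867 in brains 2, 3, 5 and 6 and 1654 in brain 4, against 1708 to 1939 in every wild-type brain. This gene had an SD of 3.14 in the mutants and 0.07 in the wild-type fish. The median pairwise r of the 17 genes was 0.826 in the mutant brains and 0.128 in the wild-type brains.

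**Figure D3:**
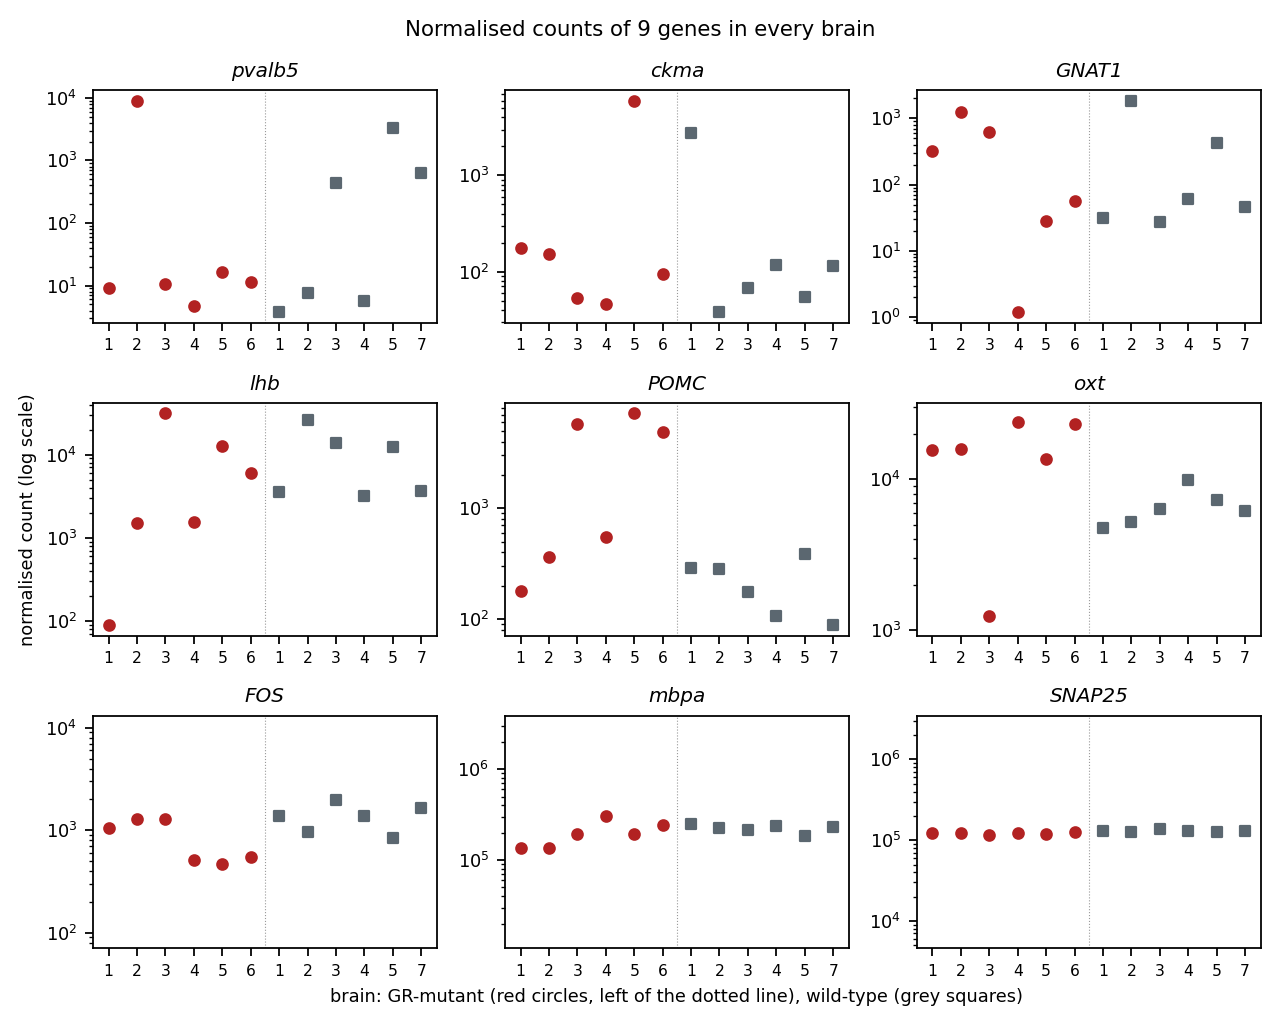
Normalised counts (log scale, 1 panel per gene) of 9 genes in every brain, with GR-mutant brains as red circles to the left of the dotted line and wild-type brains as grey squares to the right. Single brains stand apart for pvalb5 (9007 in mutant brain 2), ckma (5978 in mutant brain 5) and oxt (1238 in mutant brain 3), lhb and POMC spread over all mutant brains, and SNAP25 is nearly level.

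Hypothalamic neuropeptide genes were low in brain 3, the brain with the highest level of lhb. In teleosts the axons of hypothalamic neurons enter the pituitary directly, and oxytocin and vasopressin are made in the preoptic area. The oxytocin gene oxt had 15677, 15799.8, 1238, 23757, 13537 and 23267 normalised counts in mutant brains 1 to 6, and the vasopressin gene avp had 337, 380.2, 102, 614, 333 and 474. The galanin gene GAL had 428 in brain 3 and 1208 to 2228 in the others. Brain 3 lay below the other 5 for each of these genes, and without it the SD of oxt was 0.368 in place of 1.61. Brains 5 and 6, next after brain 3 for lhb, had 13537 and 23267 normalised counts of oxt. A link between the levels of lhb and oxt was not tested. Of the 30 neuropeptide genes, 24 were lowest in brain 3, as were 19.6% of all members, although only 7 had an SD of at least 0.5. Of the 19 hypothalamic transcription factor genes, 12 were lowest in brain 3 and none had an SD of at least 0.5. In the wild-type brains oxt had 4743 to 9844 normalised counts and an SD of 0.373.

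A group of 11 genes, 3 of them in the skin and epithelium list and 1 in the list of meninges, fibroblasts and matrix, was highest in brain 2 for 8 of them, with brain 6 also high. The keratin genes krt4 and krt15 had 1640.4 and 1727 normalised counts in brain 6, 939.9 and 1019 in brain 2 and no more than 350.1 and 434 in the other mutant brains. The collagen gene col1a1a had 349.7, 740.2, 268, 183, 539 and 930.3. Over the 11 genes, the median pairwise r was 0.823 in the mutant brains and 0.329 in the wild-type brains. Of the 13 members of the skin and epithelium list, 10 had an SD of at least 0.5, 7 were highest in brain 2 and 6 in brain 6, which was the highest brain for 18.4% of all members.

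The 4 members with the highest SD of all were at or near 0 in 2 or 3 of the mutant brains and far above it in the others. The NLR-family gene nlrc11 had 887, 0, 0, 2578, 2805 and 2719.8 normalised counts in mutant brains 1 to 6 and an SD of 5.71, the highest of any member. The gene si:ch211-181d7.2, 2 places away in gene order, had 1304, 3.66, 2.48, 2465, 2741 and 2621. The same 2 genes were low in 2 wild-type brains, with no read of nlrc11 in wild-type brains 2 and 3 and 1907 to 2377 normalised counts in the other 4. The cathepsin gene ctslb.4 had 353, 356 and 347 in mutant brains 1, 3 and 5 and no read in brains 2, 4 and 6, and at most 1.25 in the wild-type brains. The gene si:dkey-242h9.3 had 310.4 to 363 in brains 1, 3 and 6 and no read in the other 3 mutant brains nor in any wild-type brain. The SD of such genes grows with the smaller pseudocount, and for ctslb.4 it was 3.37 at a pseudocount of 5 and 5.18 at 0.5. In all, 60 members had 5 or fewer reads in at least 1 mutant brain, 39 of them in 1 brain only, and 36 of the 60 also had 5 or fewer reads in at least 1 wild-type brain.

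A rule chosen after these values were seen counted members with 2 levels, in which the brains fell into 2 sets of at least 2 with a gap of at least 0.5 log2 units and of at least 3 times the range of the wider set. It found 48 members. The gap between the levels ran from complete absence of reads to less than a factor of 2. The collagen gene COL12A1 (ENSDARG00000019601) had 724, 689 and 699.6 normalised counts in brains 1, 4 and 6, against 15.3 to 33 in brains 2, 3 and 5, and 10.5 to 36.2 in the wild-type brains. PSMB10, an immunoproteasome subunit, had 352 and 384 in brains 1 and 5 and 42.1 to 65.6 in the other 4, against 326 to 752 in the wild-type brains. PIK3C3, the class III phosphoinositide kinase of autophagy, had 812, 828 and 845 in brains 1, 4 and 6 and 1394 to 1471 in brains 2, 3 and 5. The PDZ-domain gene pdzk1 had 221 to 314 in brains 1, 2, 5 and 6 and at most 1.65 in brains 3 and 4, and vmo1a had 140.4 to 194 in brains 1 to 4 and no read in brains 5 and 6.

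Members with 2 levels that lay close together often divided the brains alike. Closeness was taken from gene order, the order of the deposited tables, in which 99.4% of neighbours with a symbol in the RefSeq table shared a chromosome there. Of the 25 pairs of such members within 200 places of each other, 18 had the same division of the brains, against 34 of the 1103 pairs farther apart. Of the 48 members, 19 had another with the same division within 200 places. The 18 pairs were formed among these 19, and pairs that share a gene are not independent. One stretch held nlrc11, si:ch211-181d7.2 and NAALAD2, all low in brains 2 and 3. Another held TBC1D31, irge4, TMEM145 and VPS72 (ENSDARG00000088567), all dividing brains 1 and 4 from the rest. The last of these, a histone-exchange subunit, had 401 and 407 normalised counts in brains 1 and 4, 667 to 742 in the other mutant brains and 781 to 858 in the wild-type brains. TBC1D31 went the other way and was higher in brains 1 and 4. A further stretch held serpinh2 and PIK3C3, both lower in brains 1, 4 and 6. The wild-type brains had 54 genes with 2 levels by the same rule, of which 3 were also among the 48. The 48 came from the same 6 brains as the rule, so these counts are a description, and the genotype of the fish at these places was not measured.

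**Figure D4:**
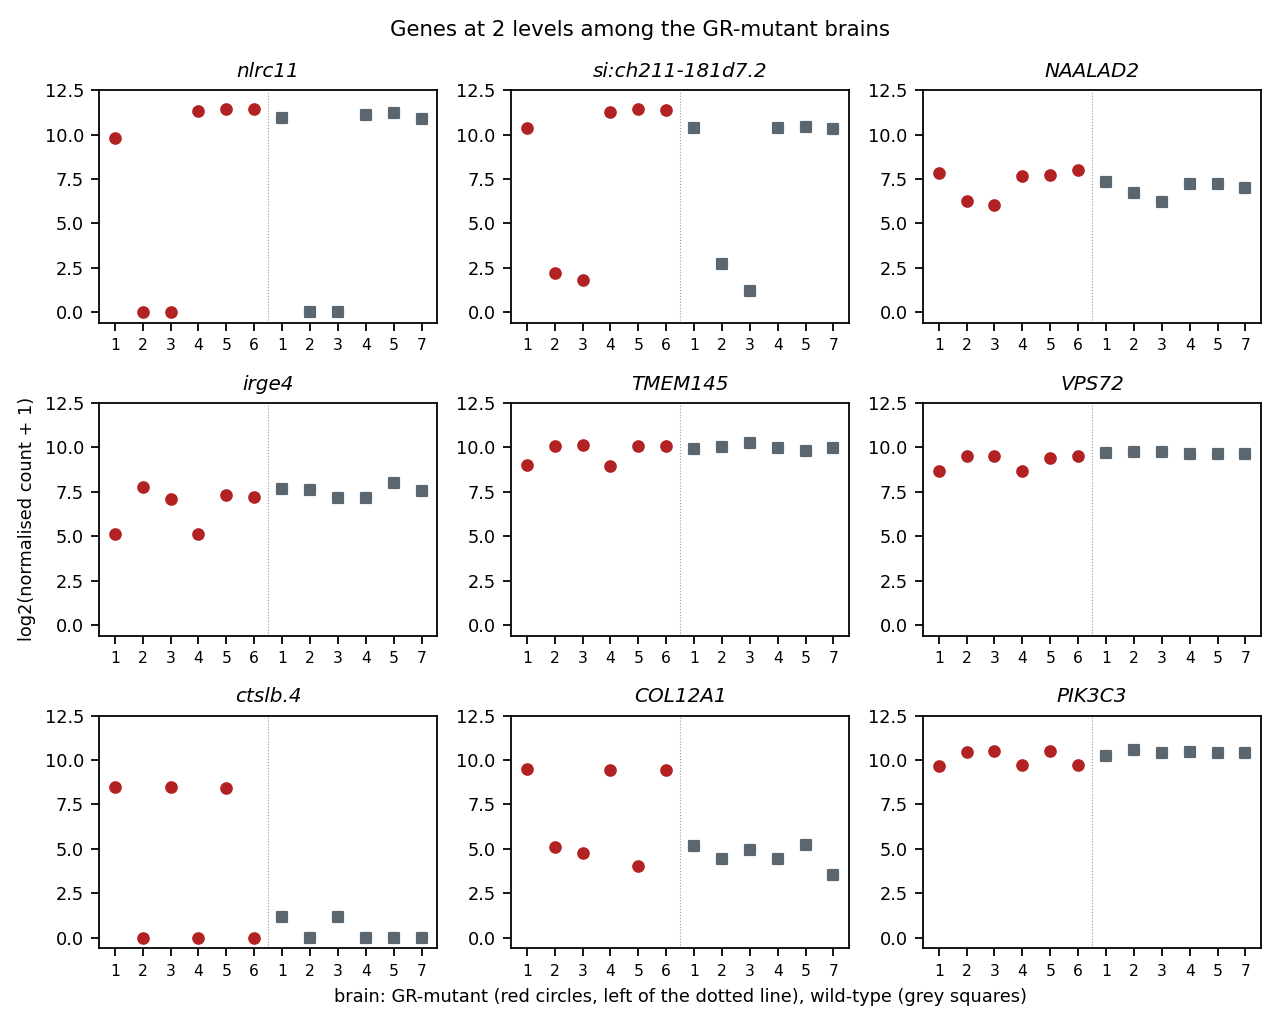
Levels, as log2(normalised count + 1), of 9 genes that stood at 2 levels among the GR-mutant brains (red circles, left of the dotted line), with the wild-type brains as grey squares to the right. The genes nlrc11, si:ch211-181d7.2 and NAALAD2 are low in mutant brains 2 and 3, irge4, TMEM145 and VPS72 are low in mutant brains 1 and 4, and ctslb.4 has no read in mutant brains 2, 4 and 6.

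Lists of genes with known functions were then set against all members, whose median SD was 0.14 and of which 4.11% had an SD of at least 0.5. Among lists with at least 8 members, the widest spread was in pituitary hormones, muscle (median 1.9), photoreceptors (1.48) and skin and epithelium (0.967). Below them came haemoglobins and red cells (median 0.455, with 6 of 12 members at 0.5 or more) and choroid plexus, ependyma and cilia (0.436, 5 of 21). The alpha-globin gene hbaa1 had 1123, 1564, 2683, 2239, 5087 and 3891 normalised counts in mutant brains 1 to 6.

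Some activity-regulated immediate-early genes were higher in brains 1, 2 and 3 than in brains 4, 5 and 6. These genes are transcribed within minutes of neuronal firing. FOS had 1056, 1293 and 1286 normalised counts in brains 1, 2 and 3 and 510.4, 469.8 and 548 in brains 4, 5 and 6, against 831 to 1963 in the wild-type brains. The transcription factor gene egr4 had 1919, 3009 and 3204 in brains 1, 2 and 3 and 1389 to 1604 in the others, while egr1 had 6953 to 9726 in brains 1, 2 and 3 and 5996 to 6524 in the others, a smaller gap. Of the 45 members, 17 had brains 1, 2 and 3 all above brains 4, 5 and 6, set against 6.13% of all members, and none had the opposite arrangement, while the list's median deviation in brain 1 was -0.0192 log2 units. Of the 45, 7 had an SD of at least 0.5 and none of at least 1, and the median SD was 0.272. Brain 2 was the highest for 25 of the 45, as it was for 16.9% of all members. In the wild-type brains the median SD of the list was 0.268.

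Genes that the GR is known to induce had a median SD of 0.187 in the mutants and 0.247 in the wild-type fish, and 5 of 30 reached an SD of 0.5 in the mutants. FKBP5, a co-chaperone that lowers the affinity of the GR for its hormone, was among the 5. It had 414, 304, 1989.8, 714, 345 and 543 normalised counts in mutant brains 1 to 6, against 12171 to 28408 in the wild-type brains, and an SD of 0.991 that was 0.497 without brain 3. The other 4 were both SOCS3 genes, CEBPB and CEBPD, which were highest in brain 2. The tree put FKBP5 beside fshb and the homeobox gene pitx3, which had 360.0 normalised counts in brain 3 and 29.3 to 69.6 in the others.

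Heat shock and clock genes had list medians close to that of all members. No SD of at least 0.5 was found among the 27 members of the heat shock list or the 45 clock genes. The list medians were 0.16 and 0.17. The heat shock genes hsp70l, hsp70.1, hsp70.3, hsp90aa1.1 and dnajb1b were on the list but too low to be members. Their spread was therefore not examined. Constitutive genes were among the 27, such as the chaperone gene HSPA8 (ENSDARG00000068992), which had 19669.5 to 23174 normalised counts in the mutant brains. Within the clock list, 24 of 45 members were lowest in brain 6, as were 17.6% of all members. The repressor gene ciarta had 308 to 600.0 normalised counts in the mutant brains and 1086 to 2382 in the wild-type brains, with SDs of 0.37 and 0.443, and NR1D1 had 488 to 1118 and 1793 to 3666, with SDs of 0.399 and 0.442.

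The list of 27 oligodendrocyte and myelin genes had a median SD of 0.328 in the mutants and 0.179 in the wild-type fish, and 2 of its members had an SD of at least 0.5. Of the 27, 18 were highest in brain 4, as were 19.9% of all members. The myelin basic protein gene mbpa had 134944, 134932, 193425, 307572, 192445 and 241387 normalised counts in mutant brains 1 to 6, against 185736 to 250351 in the wild-type brains. FA2H, which makes the hydroxylated lipids of myelin, had 974, 1425, 1873, 2678, 1431 and 2229 normalised counts in mutant brains 1 to 6. Brains 1 and 2 were low and brain 4 high for mbpa, and the list summed to 215086, 217003, 298281, 434444, 288385 and 351970.

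The narrowest lists lay somewhat below the median of all members. The list median SD was 0.11 for NLR, NOD-like and TRIM immune genes, with 8 members, 0.12 for ribosomal proteins, 0.12 for the mitochondrial genome, 0.122 for synaptic vesicle and release genes and 0.125 for newborn and immature neurons. The first of these lists did not hold nlrc11 or nlrc6, whose SDs were 5.71 and 1.07. No member of these lists reached an SD of 0.5 except 2 synaptic genes. Ribosomal protein genes moved as a block within that narrow range. Of the 74 members, 65 were lowest in brain 1, as were 14.5% of all members. The median pairwise r of the list was 0.878 in the mutant brains and 0.906 in the wild-type brains. RPLP0 had 22992 normalised counts in brain 1 and 24668 to 30523 in the others. The mitochondrial genome list had a median SD of 0.308 in the wild-type brains, where wild-type brain 1 was highest, and its most abundant gene, MT-CO1, had 672281 to 757192 normalised counts in the mutant brains and 639952 to 1028343 in the wild-type brains.

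**Figure D5:**
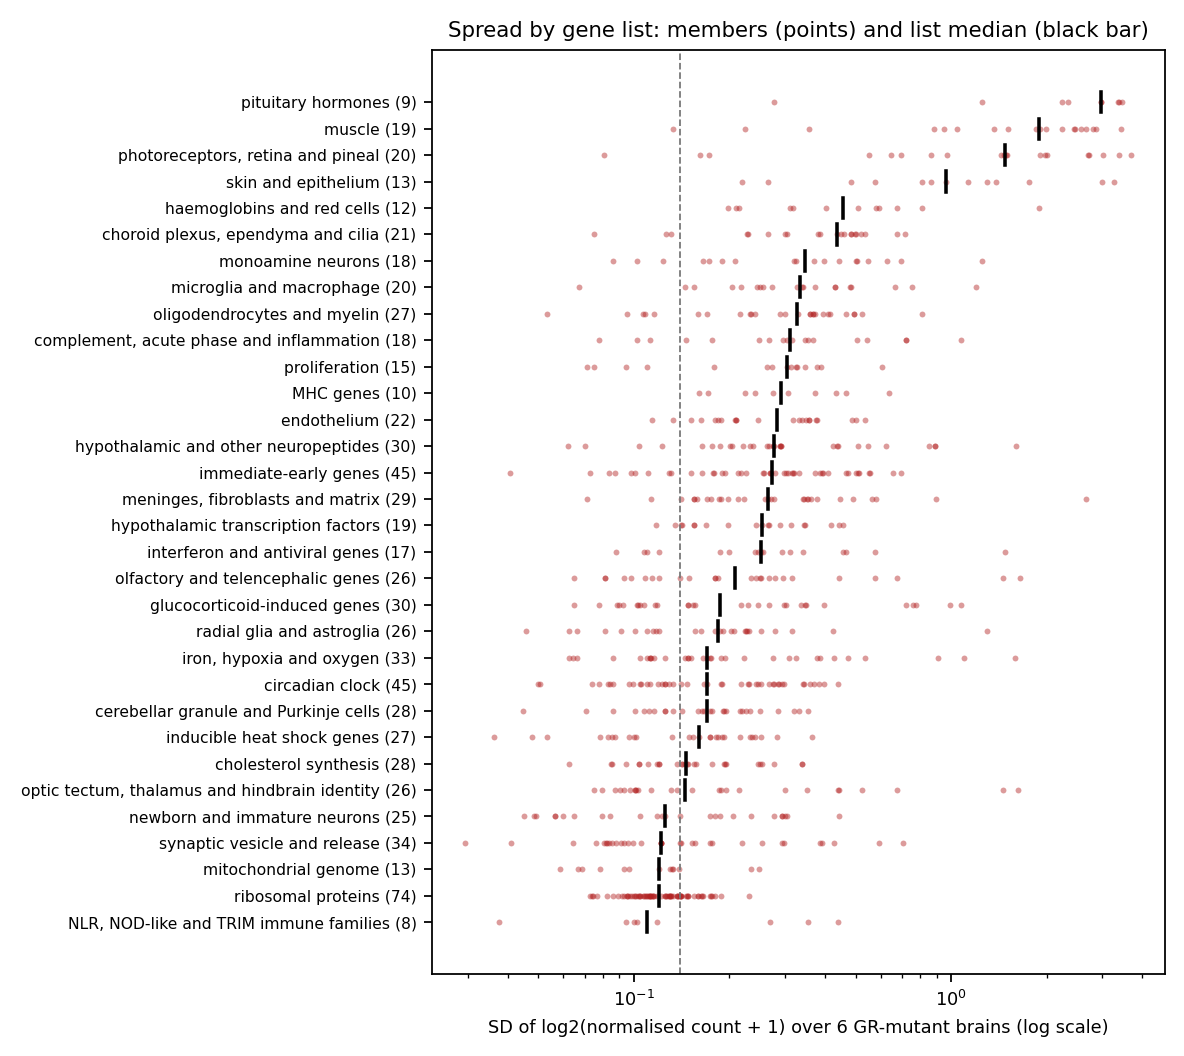
SD of log2(normalised count + 1) over the 6 GR-mutant brains (log scale) for the members of each gene list with at least 8 members, with 1 red point per gene, the number of members in parentheses and the list median as a black bar. The dashed line is the median over all members, 0.14. Pituitary, muscle and photoreceptor lists lie at the right, with medians of 2.97, 1.9 and 1.48, and ribosomal proteins lie near 0.12.

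In a principal component analysis of the 500 most variable members, the first component took 37.4% of the variance and set brain 2, at a score of -41.7, apart from the other 5, at -5.05 to 18.8. The second took 26.7% and set brain 5, at -32.8, apart from the others, at -5.34 to 23.6. The genes with the most negative loadings were si:dkey-92k1.9, pvalb5 and zgc:165423 on the first component and smyhc2, myl13 and MYL1 (ENSDARG00000014196) on the second, which belong to the groups high in brain 2 and in brain 5. The largest loadings on the first component were positive, 0.213 for nlrc11 and 0.172 for si:ch211-181d7.2, neither of them in those groups.

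The spread in the mutants was last compared with the spread in the wild-type fish, over the 14253 genes with a mean of at least 100 normalised counts in each genotype. The median SD was 0.137 in the mutants and 0.159 in the wild-type fish, and the SD was wider in the mutants for 5656 genes (39.7%). Each library's median absolute deviation from its genotype's mean was 0.1 ± 0.0117 in the mutant libraries and 0.115 ± 0.0175 in the wild-type libraries (SD, n = 6 each), a difference of -0.015 that did not pass a two-sided exact permutation test (p = 0.108, over every assignment of the 12 libraries). Without wild-type brain 5 the difference was -0.0198 and p was 0.039 in the same exact permutation test. Leaving out any other single brain gave p of 0.0628 to 0.405 in that test. The highest p came without wild-type brain 1, where the difference was -0.00709. The wild-type brain with the largest deviation was brain 1, at 0.143, which also had the largest share of mitochondrial counts of any library, 10.1%. Among these 14253 genes, 70 of the 100 most variable in the mutants were also among the 100 most variable in the wild-type fish. Members near 0 in the wild-type brains, such as ctslb.4 and pdzk1, could not enter this comparison. Of the genes of the mutant 100 that were not shared, arpc4l, selenol and HOXB5 (ENSDARG00000054030) were among 6 whose SD in the wild-type fish was less than 2 times the wild-type median.

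For single genes, the absolute deviations were compared between the genotypes with limma. No gene passed (0% of 14253 at a Benjamini-Hochberg adjusted p of 0.05, smallest adjusted p 0.172), while 1590 had an unadjusted p under 0.05, of which 473 were wider in the mutants and 1117 narrower. That number depended on the centre. With deviations taken from the genotype median in place of the mean, 670 genes had an unadjusted limma p under 0.05 and 0 passed. On simulated counts with 6 brains in each genotype limma called 2 of 50 genes at a 16-fold ratio of SDs and none of 50 at a ratio of 8. All unaltered genes of the simulation had the same SD of 0.159. The members' SDs differed, with percentiles of 0.0516 (5th) and 0.458 (95th), so the simulated counts need not carry over to these data. Fitted without the mean-variance trend, limma called 10 genes, 6 of them wider in the mutants, PIK3C3 and serpinh2 among these. On variance-stabilised reads, a setting added after the data were seen, it called 1. Among the smallest p-values, TAB2, an adaptor of the TAK1 kinase, had 705 to 822 normalised counts in the mutant brains and, in the wild-type brains, 2129 to 2364 in 4 and 749 and 789 in the other 2 (limma adjusted p = 0.172). The steroid dehydrogenase gene hsd20b2 had 121 to 148 in the mutant brains, against 288 and 302 in wild-type brains 1 and 2 and 1045 to 1381 in the other 4 (limma adjusted p = 0.172). The ubiquitin ligase gene rnf144ab had 2367 to 2613 in the mutant brains and 1798 to 4979 in the wild-type brains. PLS1, an actin-bundling protein, went the other way, with 151 to 427 in the mutant brains and 367 to 402 in the wild-type brains.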

How the data were processed

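RNA-seq of 12 whole zebrafish brains was used, with 1 table per brain. After trimming, the authors filtered out ribosomal reads (SortmeRNA), used STAR for both alignment to GRCz11 and gene counts, and divided each library by its DESeq2 size factor. What they deposited is thus a signal, the normalised count of each gene. The submitters' processing notes name Trimmomatic (3.9). No source used here gives the strand setting, and overlapping genes or near-identical paralogs may share reads. Dividing by the value of 1 read gave whole reads for 100% of values (tolerance 0.001), and these reads served for depth, counting error, edgeR (4.0.16) and DESeq2 (1.42.0).

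From the deposited values, spread was the SD of log2(value + 1) over the 6 GR-mutant libraries, for genes with a mean of at least 100. Groups came from average linkage on 1 minus r of the 300 most variable members, with the tree divided at a height of 0.3. Spread was compared between genotypes with limma (3.58.1, R 4.3.3) on absolute deviations, with a trend and no block, after a test on simulated counts over 14253 genes. Each library came from 1 fish, and p-values measure the spread between these samples. The members, the tests and 35 gene lists (1238 symbols, of which 861 matched as written and 277 without their paralog ending) were chosen with earlier results of these data known. A list's median and counts stand in for a test. The genes named were the 30 of highest SD, up to 5 of highest SD and 2 of highest mean per list, 8 per group, 5 least variable, 10 of smallest p, neighbours in gene order among the 100 of highest SD, and NR3C1. The text gives examples of these, and some genes that the rule takes are not reported here. The genes actc1b, cdh1, prl, selenol, RPE65 (ENSDARG00000007480), aanat2, ASMT, NAALAD2, TBC1D31, TMEM145, zgc:165423, PIK3C3 and serpinh2 were named in full or in part after their values were seen. Many symbols in the name table are in capitals, and a gene ID follows a symbol that several genes share. The germline and egg list had no member. Replicates are numbered as in the titles. The alternatives were other pseudocounts, scalings, filters, measures of spread, trees and tests, and each brain left out in turn.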

Additional observations from a re-analysis of the deposited data

Results flagged for a closer look

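Of 98 levels tested in the 6 GR-mutant brains, 28 had a brain whose gap to the nearest other brain, as a share of the whole range on the log2 scale, was above Dixon's critical value for 6 values. Chance flags about 1 in 20 such sets, and these genes were chosen for their spread, so that the number is a description. Brain 2 was the high one for the group of 65 genes that includes pvalb5 (0.862), and among single genes for pvalb5 (0.849), or92a4 (0.9), si:dkey-92k1.9 (1), cldne (0.671), ELF3 (0.698), cdh1 (0.687), S100Z (0.94), OMP (ENSDARG00000105218) (0.706), apoeb (0.641), MMP9 (0.821), SOCS3 (ENSDARG00000026611) (0.718) and hsd20b2 (0.674). It was the low one for a group of 14 genes (0.715). Brain 5 was the high one for the group of 53 genes that includes ckma (0.713) and for ckma (0.727), pvalb4 (0.713) and actc1b (0.741), and the low one for a group of 7 genes (0.862). Brain 4 was the low one for the group of 31 genes that includes GNG11 (0.86) and for selenol (0.776).

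Brain 3 was the low one for the group that holds oxt, avp and GAL (0.796), with gap shares of 0.81 for oxt, 0.659 for avp and 0.629 for GAL, and the high one for pitx3 (0.659). Brain 1 was the low one for arpc4l (0.849), and brain 6 for rnf144ab (0.636).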

How the results depend on the processing

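The counts depended most on the filter. The median SD was 0.154 at a minimum mean of 50, 0.108 at 500 and 0.291 with no filter, and the members with an SD of at least 1 numbered 393, 43 and 2763. Of the 100 most variable members, 64 were shared at a minimum of 50, 24 at 500, 63 by the coefficient of variation and 57 by the scaled median absolute deviation, by which 39 of the mutant 100 were also in the wild-type 100. Trees of 200 and 500 members put 171 and 452 genes in groups. Leaving out 1 brain at a time gave 42.5% to 51.8% for the first component. The spread test called 10 genes without the trend, 1 on variance-stabilised reads (added after the data were seen), and 0 to 11 with 1 brain left out, namely 11 without wild-type brain 5, 1 without GR-mutant brain 2 and 1 without wild-type brain 3. The difference in median deviation ranged over -0.0198 to -0.00709. It was -0.0198 without wild-type brain 5 (exact permutation p = 0.039) and -0.00709 without wild-type brain 1 (exact permutation p = 0.405). With a replicate block the test called 1 gene. Same-numbered brains had deviations correlated at 0.0113, 0.108, 0.141, 0.139 and -0.138, and 1 mutant correlated best with its own number, so the numbers were not taken as pairs. Members at 2 levels, with settings added after the data were seen, numbered 27 with a gap of 4 times the range and 106 with 2 times. The causes were not tested. Of 312 SDs of named genes with no brain left out, 5 moved, and of 468 with 1 left out, 41. Counted by gene, 41 of the 78 named genes had an SD that moved.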

Other observations

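The genes whose pattern over the 6 GR-mutant brains was most like that of oxt, among variable members, included the forebrain homeobox genes VAX1 (r = 0.994) and OTP (ENSDARG00000014201) (r = 0.962), the peptide genes avp (r = 0.978), tac3a (r = 0.949), GAL (r = 0.944) and SST (r = 0.932). For mbpa they included the myelin genes plp1b (r = 0.993) and mbpb (r = 0.966), and the gap junction gene GJB1 (ENSDARG00000035553) (r = 0.984). For FOS they included BTG2 (r = 0.961), an early response gene, beside the photoreceptor gene rbp3 (r = 0.978). These are correlations over 6 brains that share their libraries, picked as the highest of many, and are given as a description.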
